A study of Homo sapiens with 6 samples.

Results

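Keratin genes of simple and basal epithelium were followed across the arrays of a study that lowered DICER1 or DROSHA in MDA-MB-231, a human breast cancer cell line that the labels describe as basal-like. The members are 10 listed genes: KRT7, KRT8, KRT18 and KRT19 of simple epithelium, KRT5, KRT14, KRT15 and KRT17 of basal epithelium, and KRT80 and KRT81. All probes annotated to these genes were taken. The platform annotation named 10 probes for 8 of the 10 genes, out of 47319 probes and 20045 annotated genes on the array. No probe was annotated to KRT17 or KRT81, which were not analysed here. The 6 arrays form 3 groups of 2: control MDA-MB-231 cells, MDA-MB-231 cells that stably express a small hairpin RNA against DICER1 (DICER1-sh), and MDA-MB-231 cells that stably express one against DROSHA (DROSHA-sh). DROSHA and DICER1 are the nuclear and the cytoplasmic enzyme of miRNA maturation, and the comparison asks which mRNAs respond when that maturation is held back. The labels give no hairpin for the control cells, no number of clones for the hairpin lines, and do not say whether a group's 2 arrays were grown apart. The p-values therefore cover array-to-array spread alone, and that spread may be technical.

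Keratins are the intermediate filament proteins of epithelial cells. A filament needs a type I keratin paired with a type II keratin: KRT8 (type II) pairs with KRT18 (type I) in simple epithelium, where KRT7 and KRT19 accompany them, and KRT5 (type II) pairs with KRT14 (type I) in basal and myoepithelial cells. KRT8 and KRT18 mark the luminal cells of the breast, KRT5, KRT14 and KRT17 the basal cells, and the latter are used to recognise basal-like tumours. In RefSeq the type II genes KRT5, KRT7, KRT8, KRT80 and KRT81 lie on chromosome 12, KRT18 lies next to KRT8 on the same chromosome, and the type I genes KRT14, KRT15, KRT17 and KRT19 lie on chromosome 17. KRT8 and KRT18 also have many processed pseudogenes, 52 and 68 by name in RefSeq. Whether their probes also bind such transcripts could not be told, as probe sequences were not used here.

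Of the 8 keratins with a probe, 6 were above background on all 6 arrays and 2 on none. A probe was called above background on an array where its detection p-value, which ranks it against negative control probes, was below 0.05. KRT8, KRT18, KRT19 and KRT7 of simple epithelium were detected throughout, with a highest detection p of 0.00519 for the dimmer of the KRT18 probes. KRT80, a type II keratin of many epithelia, was detected on all arrays by both of its probes. KRT15, a type I keratin of basal cells, was detected on all arrays but only narrowly, with detection p-values of 0.0169 and 0.0377 in control, 0.0169 and 0.0195 in DICER1-sh, and 0.0013 and 0.0052 in DROSHA-sh. At a stricter detection p of 0.01, KRT15 was above background on the 2 DROSHA-sh arrays and on no control or DICER1-sh array, while the other detected probes stayed above background on all 6 arrays.

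The defining pair of basal cells was not detected. The KRT5 probe had detection p-values from 0.740 to 0.988 and the KRT14 probe from 0.710 to 0.943. Raw intensities were 114.7 and 104.9 (control), 119.1 and 95.5 (DICER1-sh), and 113.6 and 100.7 (DROSHA-sh) for KRT5. For KRT14 they were 129.6 and 115.8 in control, 105.2 and 110.6 in DICER1-sh, and 120.6 and 115.7 in DROSHA-sh. All these values lay below the arrays' median intensities of 150.2 to 166.7. No change can be given for either gene in any comparison, because both sides are below background. The basal-like label goes with undetected KRT5 and KRT14 on these arrays, and with a faint KRT15.

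The bases just before the start of KRT5 are shown because this is the listed gene that was detected on no array and whose start could be read from RefSeq. The RefSeq promoter table held 2 of the 10 members, KRT5 and KRT8, and the KRT8 entry does not end at the start of the RefSeq gene. The KRT5 sequence covers the 250 bases before the start, at chr12:52520395-52520644 of GRCh38.p14, minus strand, written 5′ to 3′ on the strand of the gene, with motif matches in capitals.
KRT5: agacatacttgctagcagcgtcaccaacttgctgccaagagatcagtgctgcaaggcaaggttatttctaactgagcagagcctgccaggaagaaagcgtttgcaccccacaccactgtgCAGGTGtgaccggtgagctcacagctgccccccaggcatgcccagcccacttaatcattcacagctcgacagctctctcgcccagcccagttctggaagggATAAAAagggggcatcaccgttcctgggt
The first capitals, at position -130 from the start, are the E-box CACCTG read on the opposite strand, the letters that the repressors ZEB1, ZEB2 and SNAI2 are known to bind. The second, at position -29, are ATAAAA, a run like a TATA box. CACCTG occurs in 17.5% and ATAAAA in 14.8% of 35114 promoter windows of the same length, both strands counted. These windows include that of KRT5 and were not checked to end at a RefSeq gene start. The TATA box TATAAA, which 10.7% of windows hold, was not found in this window. Neither was the GC box GGGCGG, held by 42.6% of windows, the AP-1 site TGANTCA, held by 6.57%, or the AP-2 core GCCNNNGGC, held by 19.8%. These matches describe letters and were not tied to any measurement.

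**Figure D1:**
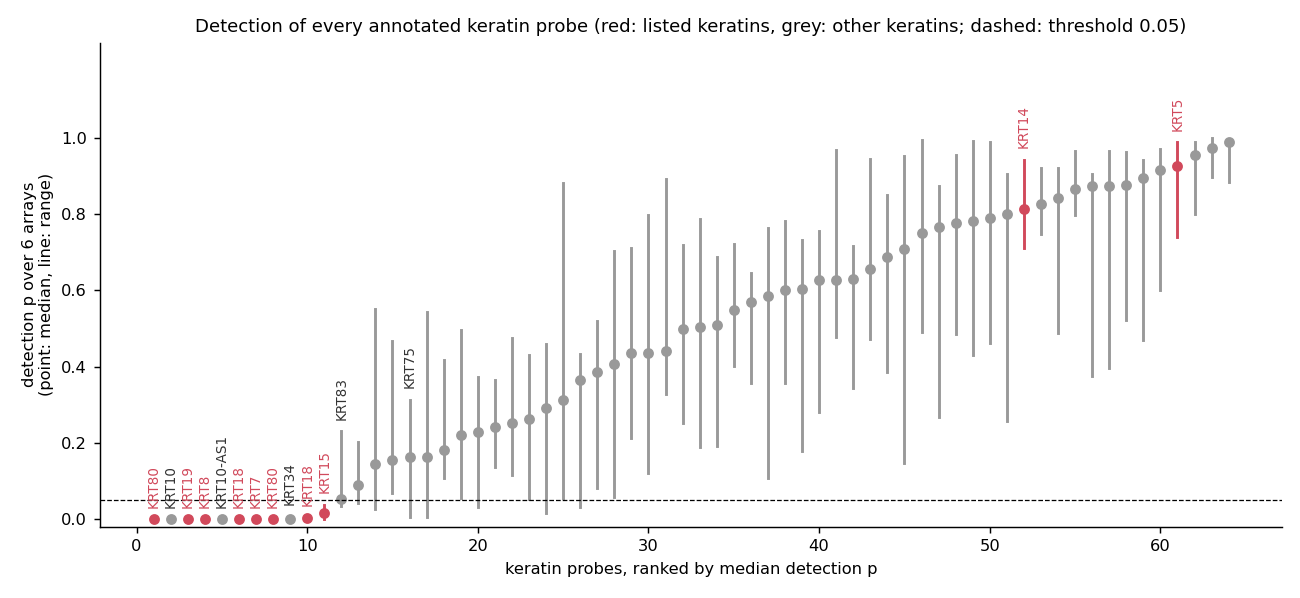
Detection p-values of every annotated keratin probe over the 6 arrays (vertical axis; point, median; line, lowest to highest), ranked by the median, with the listed keratins in red and other keratins in grey. The 8 probes of KRT80, KRT19, KRT8, KRT18, KRT7 and KRT15 lie under the dashed threshold of 0.05 on all arrays, and KRT14 and KRT5 lie far above it.

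The arrays were of like brightness, with 42.0% to 44.4% of probes above background. Precision is limited by having 2 arrays a group. All 8 markers of the MDA-MB-231 line (VIM, CD44, EGFR, CAV1, MSN, AXL, S100A4 and PLAU) were above background on every array. Of the epithelial markers EPCAM and CLDN7 were detected on all arrays, CLDN3 on 4 and CLDN4 on 3, while CDH1, OCLN, ESRP1 and ST14 were detected on none. Of the luminal markers XBP1, TFF3, AGR2 and SPDEF were detected on all arrays, GATA3 on 3, FOXA1 on 1, and ESR1, PGR and TFF1 on none. The targeted transcripts were lowest in their own lines: DICER1 stood at a log2 change of -1.42 in DICER1-sh and DROSHA at -2.25 in DROSHA-sh, with adjusted p-values of 0.969 and 0.479 in limma. The arrays of the control pair and of the DICER1-sh pair stood apart from each other: the median gene differed by 0.51 (log2) within control and by 0.39 within DICER1-sh, against 0.15 within DROSHA-sh. Their differences ran in opposite order, with control 1 resembling DICER1-sh 2 (correlation of the replicate differences over genes -0.63). ZEB1, an epithelial repressor named here after its values were seen, shows the split: its log2 level was 7.93 on control 1 and 7.48 on DICER1-sh 2, but 4.84 on control 2 and 4.96 on DICER1-sh 1, where it was not above background. EHF, an epithelial transcription factor also named after its values were seen, had 8.71 and 7.90 on the first 2 of these arrays and 6.32 and 5.67 on the others. This split touches the keratins, and the changes of the listed keratins against control are given below with their array values. Changes of many other genes are given without them, and the split may enter those too.

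KRT18, the type I partner of KRT8, was the member whose DICER1-sh arrays lay furthest below its other arrays. Its brighter probe (ILMN_1803408) had normalised log2 intensities of 9.19 and 9.66 in control, 8.02 and 8.91 in DICER1-sh, and 9.50 and 9.35 in DROSHA-sh. Both DICER1-sh arrays lay below all 4 others, as they did for 4.14% of all 17790 genes and unnamed probes tested. The mean was 8.46 ± 0.63 in DICER1-sh against 9.43 ± 0.33 in control (SD, n = 2), which is -0.96 on the log2 scale (standard error 0.37, 95% interval -1.82 to -0.10) or 1.95-fold lower. It did not pass the test (limma, unadjusted p = 0.0326, adjusted p = 0.969). In bulk RNA, fewer cells with the transcript and less transcript per cell cannot be told apart. The dimmer KRT18 probe (ILMN_1730848), annotated to another transcript of the gene, gave 6.79 and 7.00 in control, 6.54 and 6.74 in DICER1-sh, and 7.02 and 6.97 in DROSHA-sh. Its DICER1-sh arrays were again the lowest of the 6, but the change was smaller, -0.25 with a standard error of 0.27 (adjusted p = 0.969 in limma over all probes). The size rests on DICER1-sh 1: without it the change of the brighter probe was -0.52, and without DICER1-sh 2 it was -1.41. In DROSHA-sh the brighter probe stood at -0.0012 with a 95% interval of -0.86 to 0.86, and its arrays lay between the control arrays.

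KRT8, the type II partner, did not share the KRT18 pattern. Its log2 levels were 10.24 and 11.30 in control, 11.67 and 10.47 in DICER1-sh, and 11.16 and 11.11 in DROSHA-sh. The highest and the second lowest array both belonged to DICER1-sh, so that group overlapped both others. The change was 0.30 in DICER1-sh (standard error 0.49, 95% interval -0.84 to 1.45, adjusted p = 0.969 in limma) and 0.37 in DROSHA-sh (standard error 0.49, 95% interval -0.78 to 1.51, adjusted p = 0.858). The replicate spread was larger than either change: the pairs differed by 1.06 within control and by 1.20 within DICER1-sh, against 0.05 within DROSHA-sh. Without control 1 the changes were -0.22 and -0.16, and without control 2 they were 0.83 and 0.90.

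KRT7, a type II keratin of simple and glandular epithelium, followed KRT8 from array to array. It had log2 levels of 10.11 and 11.02 in control, 11.43 and 10.56 in DICER1-sh, and 11.04 and 11.09 in DROSHA-sh. Control 1 and DICER1-sh 2 were the lowest arrays for both genes. Its change was 0.43 in DICER1-sh (standard error 0.41, 95% interval -0.54 to 1.40, adjusted p = 0.969 in limma) and 0.50 in DROSHA-sh (standard error 0.41, 95% interval -0.47 to 1.47, adjusted p = 0.850). Both DROSHA-sh arrays lay above both control arrays, by a narrow margin over control 2, and the change was 0.043 without control 1 and 0.95 without control 2.

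KRT19, the type I keratin without a tail domain, varied less. Its log2 levels were 11.56 and 11.79 in control, 12.35 and 11.62 in DICER1-sh, and 12.03 and 12.07 in DROSHA-sh. Both DROSHA-sh arrays were above both control arrays, while 1 DICER1-sh array fell between the control arrays. The change was 0.31 in DICER1-sh (standard error 0.32, 95% interval -0.44 to 1.07, adjusted p = 0.969 in limma) and 0.38 in DROSHA-sh (standard error 0.32, 95% interval -0.38 to 1.13, adjusted p = 0.850). In DROSHA-sh it stayed between 0.26 and 0.50 whichever array was left out, and in DICER1-sh it was -0.053 without DICER1-sh 1.

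**Figure D2:**
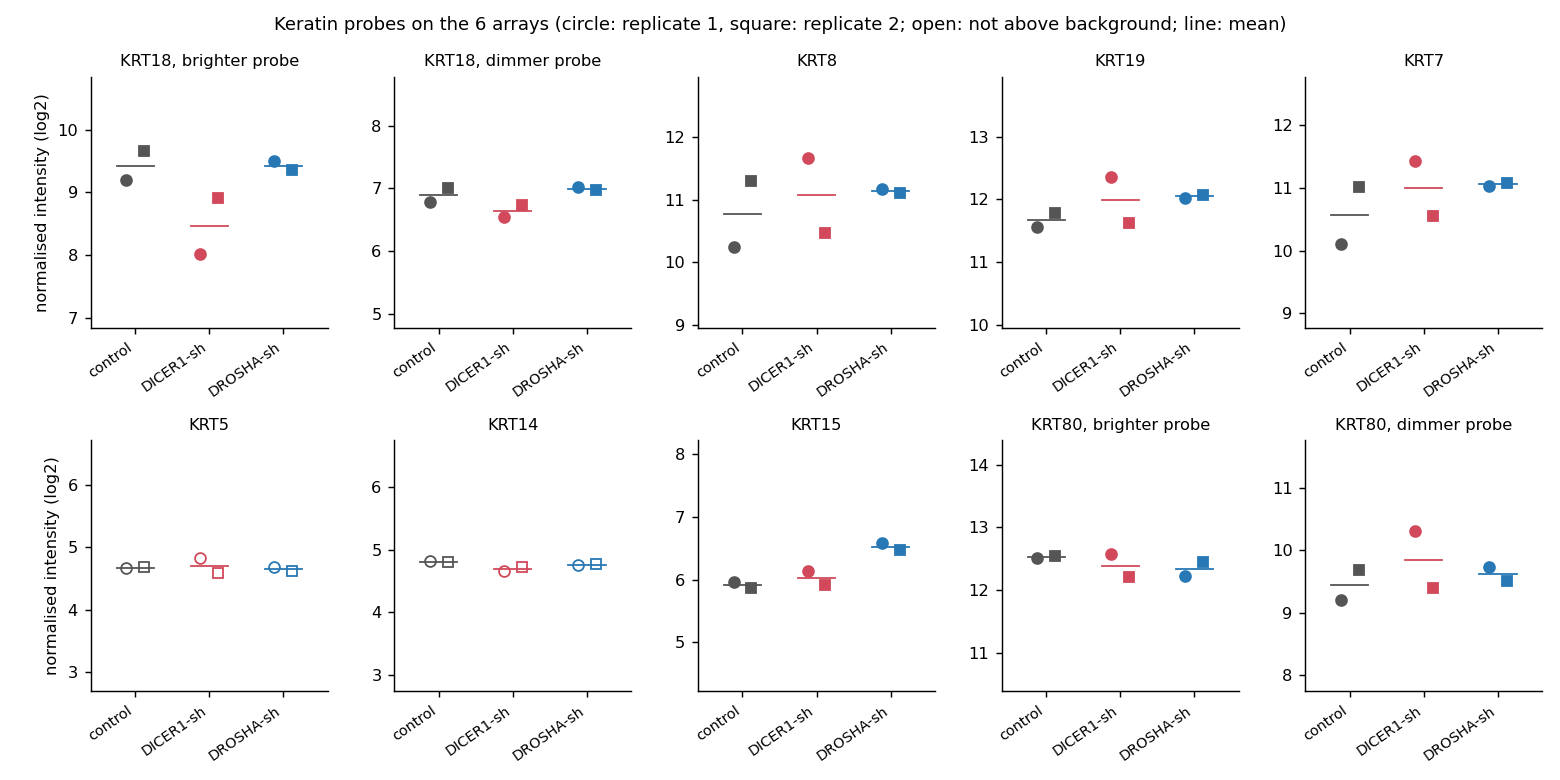
Normalised log2 intensity of each of the 10 annotated keratin probes on the 6 arrays (circles, replicate 1; squares, replicate 2; lines, group means; open symbols, not above background), with the same span of 4 log2 units in every panel. Both DICER1-sh arrays are the lowest for both KRT18 probes, both DROSHA-sh arrays are the highest for KRT15, and KRT8 and KRT7 are low on control 1 and DICER1-sh 2.

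KRT15, the faint keratin of basal cells, was the member that stood highest in DROSHA-sh relative to the other arrays. Its log2 levels were 5.96 and 5.87 in control, 6.14 and 5.92 in DICER1-sh, and 6.58 and 6.48 in DROSHA-sh. Both DROSHA-sh arrays lay above all 4 others, as they did for 7.31% of all features tested. The mean was 6.53 ± 0.07 in DROSHA-sh against 5.91 ± 0.07 in control (SD, n = 2), which is 0.61 on the log2 scale (standard error 0.26, 95% interval 0.002 to 1.23) or 1.53-fold higher. It did not pass the test (limma, unadjusted p = 0.0494, adjusted p = 0.850). The change stayed between 0.56 and 0.66 whichever array was left out. The size depends on the background correction, since the lowest detected probes stood at 5.63 to 5.75: it was 0.24 with none and 0.81 in the deposited processed values. In DICER1-sh the change was 0.12 with a standard error of 0.26, and the arrays overlapped those of control.

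KRT80 was the steadiest member by its brighter probe (ILMN_1705814), which had log2 levels of 12.51 and 12.54 in control, 12.57 and 12.21 in DICER1-sh, and 12.23 and 12.45 in DROSHA-sh. The changes were -0.13 in DICER1-sh (standard error 0.28, 95% interval -0.78 to 0.51, adjusted p = 0.969 in limma) and -0.18 in DROSHA-sh (standard error 0.28, 95% interval -0.83 to 0.46, adjusted p = 0.870). Both DROSHA-sh arrays lay below both control arrays. The dimmer probe (ILMN_2366445) went the other way, with 9.20 and 9.69 in control, 10.31 and 9.39 in DICER1-sh, and 9.74 and 9.51 in DROSHA-sh. Its changes were 0.40 in DICER1-sh and 0.18 in DROSHA-sh, with a standard error of 0.38 for each, so the probes disagree in sign and neither change exceeds its error by much.

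**Figure D3:**
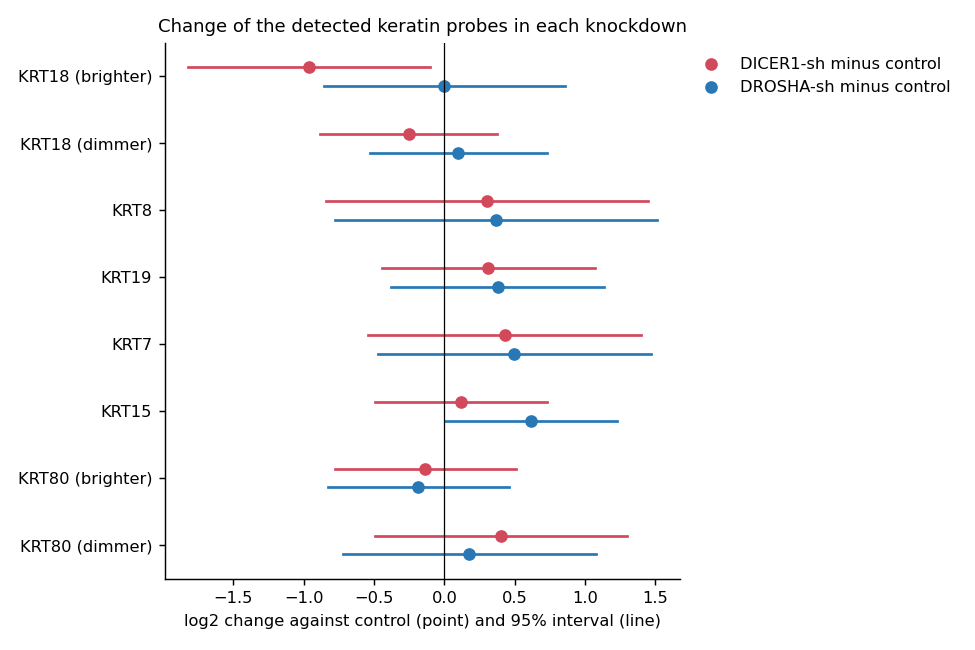
Log2 change of each detected keratin probe in DICER1-sh (red) and in DROSHA-sh (blue) against control, with 95% intervals from limma. Genes are drawn from the fit of 1 probe a gene and the dimmer probes from the fit of every probe. The intervals cover 0 except for the brighter KRT18 probe in DICER1-sh (-1.82 to -0.10) and KRT15 in DROSHA-sh (0.002 to 1.23), of which the latter covers 0 in the fit of every probe (-0.0087 to 1.24), and neither passed after adjustment.

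No keratin passed an adjusted p of 0.05 in either knockdown. In DICER1-sh against control 0 of the 6 tested keratins passed, against 0% of 17790 features, and 1 (KRT18) had an unadjusted p below 0.05, against 1.93% of features. In DROSHA-sh against control 0 of 6 passed, again against 0%, and 1 (KRT15) had an unadjusted p below 0.05, against 2.96% of features. In the limma fit of every probe, from which the dimmer probes were read, KRT15 had an unadjusted p of 0.0525, which misses that threshold. The arrays of DROSHA-sh and control did not overlap for 4 of the 6: KRT7, KRT19 and KRT15 were higher, as 19.7% of features were, and KRT80 was lower, as 17.7% were. In DICER1-sh only KRT18 of the 6 did not overlap with control, being lower, as 9.36% of features were, and 0 were higher without overlap, against 10.9%. The 2 knockdowns share their control arrays, so their changes are not independent of each other.

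Setting DROSHA-sh directly against DICER1-sh leaves the control arrays out of the difference. KRT18 stood 0.96 higher in DROSHA-sh (log2, standard error 0.37, 95% interval 0.10 to 1.82), KRT15 stood 0.50 higher (standard error 0.26, 95% interval -0.11 to 1.11), and the DROSHA-sh arrays lay above both DICER1-sh arrays for both genes, as for 16.2% of features. None of the 6 lay below without overlap, as 17.2% of features did. KRT8, KRT19 and KRT7 differed by 0.06 to 0.07 and KRT80 by -0.05. None of the 6 passed (adjusted p = 1.00 in limma for each, with 1 of 17790 features called, 0.00562%), and for KRT18 the unadjusted p was 0.0328, against 2.41% of features. The interval for KRT8 ran from -1.08 to 1.21, so the data leave room for a difference of 2-fold in either direction.

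Arrays that resemble each other were also set side by side, a comparison added after the data were seen. DICER1-sh 1 minus control 2 gave -1.64 for KRT18, 0.38 for KRT8, 0.41 for KRT7, 0.56 for KRT19, 0.27 for KRT15 and 0.029 for KRT80. DICER1-sh 2 minus control 1 gave -0.28 for KRT18, 0.23 for KRT8, 0.45 for KRT7, 0.064 for KRT19, -0.041 for KRT15 and -0.30 for KRT80. KRT18 was thus lower and KRT8, KRT7 and KRT19 higher in DICER1-sh in both, with KRT18 differing in size between them. KRT18 did not follow the split: its replicate 2 stood above replicate 1 both in control (0.47) and in DICER1-sh (0.89). These are differences between single arrays. The part of the split in the DICER1-sh changes was not otherwise tested.

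**Figure D4:**
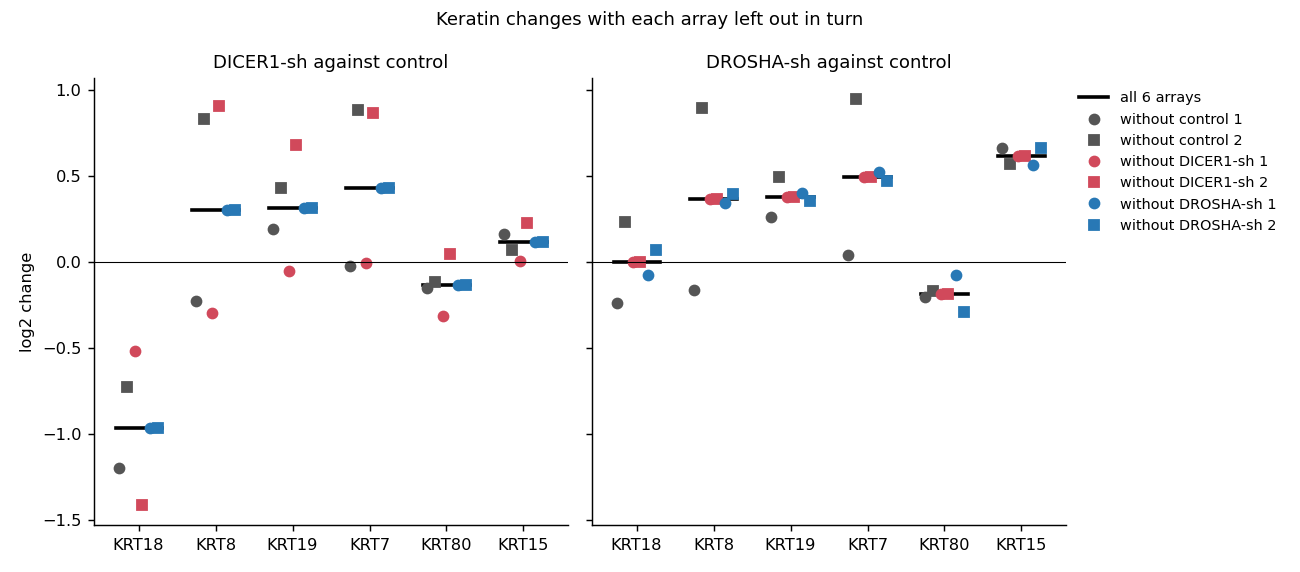
Log2 change of the 6 detected keratins in DICER1-sh (left) and DROSHA-sh (right) against control with all 6 arrays (black bars) and with each array left out in turn (symbols). KRT18 stays below 0 in DICER1-sh (-1.41 to -0.52) and KRT15 above 0 in DROSHA-sh (0.56 to 0.66), while KRT8 lies on both sides of 0 in both panels.

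Beyond the listed members, 48 probes of 41 other keratin genes were annotated, and 40 of these probes were above background on no array. KRT10, the type I keratin of differentiated epidermis, and KRT34, a hair keratin, were detected on all 6 arrays. KRT10 had log2 levels of 10.79 and 11.68 in control, 11.93 and 11.47 in DICER1-sh, and 12.19 and 11.66 in DROSHA-sh, a change of 0.46 and of 0.69 (standard error 0.39 for each). KRT10-AS1, an RNA gene of the KRT10 locus, had changes of 0.44 and 0.62 (standard error 0.37 for each). KRT34 stood at 0.23 in DICER1-sh and -0.27 in DROSHA-sh (standard error 0.28 for each). KRT83, above background on 1 array of each group, stood at -0.08 and -0.12 (standard error 0.34 for each). KRT75 was above background on no control array and on 1 array of each knockdown, and its groups overlapped. None of these genes passed the test (adjusted p = 0.850 or more in limma). KRT1, KRT2, KRT6C, KRT13 and KRT16, keratins of stratified epithelium, were above background on no array, and KRT9 of epidermis on 1 array, of DROSHA-sh.

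Transcripts of the proteins that join keratin filaments to the cell surface were mostly detected. Of 20 linker and desmosome genes, 14 were above background on all 6 arrays and 18 were tested, and 0 passed in either knockdown. Their median log2 change was 0.06 in DICER1-sh and -0.34 in DROSHA-sh, against 0.02 and 0.03 over all features. DST, the dystonin that anchors keratins at hemidesmosomes, had log2 levels of 8.77 and 8.15 in control and 7.36 and 7.41 in DROSHA-sh, a change of -1.08 (standard error 0.32, adjusted p = 0.850 in limma). DSP, the desmoplakin that ties keratins to desmosomes, had 8.34 and 7.97 in control and 8.81 and 8.90 in DROSHA-sh, a change of 0.70 (standard error 0.27). PPL, the periplakin of the same linker family, stood at 0.95 in DICER1-sh with a standard error of 0.31, and was above background on 1 of the control arrays. The desmosomal genes PKP1 and DSG3 were detected on no array.

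Among 15 other intermediate filament genes, 7 were detected on all arrays and 0 of 8 tested passed. VIM, the filament protein of mesenchymal cells, had log2 levels of 15.91 and 15.44 in control, 15.48 and 15.68 in DICER1-sh, and 15.28 and 15.36 in DROSHA-sh, so its changes were -0.09 and -0.35 with a standard error of 0.29. LMNB1, a nuclear lamin, stood at -0.18 and -0.53 with a standard error of 0.28, while NES, the nestin of progenitor cells, was above background on 1 array of each group and its groups overlapped. The list's medians were 0.08 in DICER1-sh and -0.06 in DROSHA-sh.

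Transcripts of all 5 keratin binding proteins were detected on every array, and 0 passed. TRADD, a death receptor adaptor that binds KRT18, had log2 levels of 7.30 and 8.21 in control, 8.50 and 8.03 in DICER1-sh, and 8.66 and 8.59 in DROSHA-sh, a change of 0.51 and of 0.86 (standard error 0.37 for each, adjusted p = 0.969 and 0.850 in limma). SFN, the 14-3-3 protein of epithelial cells, stood at 0.53 and 0.63 (standard error 0.53), and DNAJB6, a chaperone that binds KRT18, at -0.15 and -0.26 (standard error 0.27). The medians of these 5 genes were 0.35 and 0.46.

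Of 19 regulators of epithelial genes, 18 had an annotated probe, and TP63 had none. Of these regulators 8 were detected on all arrays, 10 were tested and 0 passed, with medians of -0.14 in DICER1-sh and -0.04 in DROSHA-sh. TFAP2C, an AP-2 factor of breast epithelium, stood at 0.31 and 0.57 (standard error 0.35). ELF3, an epithelial ETS factor, stood at -0.48 and 0.14 (standard error 0.35), and KLF5, a factor of basal epithelium, at -0.37 and -0.38 (standard error 0.36). GRHL2, ESRP1, ESRP2, OVOL1 and OVOL2, which maintain the epithelial state, were detected on no array.

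Markers of other cells that also carry keratins did not pass either. Of the 6 myoepithelial markers 5 had an annotated probe, and TP63 had none. ACTA2 and OXTR were detected, ACTA2 at 0.48 and 0.16 (standard error 0.28) and OXTR at 0.34 and 0.20 (standard error 0.31). MYH11, CNN1 and MME were detected on no array. Of the 9 luminal markers 5 were tested: AGR2 stood at 0.42 and 0.96 (standard error 0.33), and TFF3 at 0.86 and 0.16 (standard error 0.45). The mean of GATA3, not above background in control, was higher by at least 1.40-fold in DICER1-sh, a bound that leaves out array spread. With the spread counted, its log2 change was 0.57 with a 95% interval of -0.10 to 1.23, so its direction is not settled. In DROSHA-sh GATA3 was above background on 1 array and overlapped control. Among the epithelial markers the mean of CLDN4 was at least 1.49-fold lower in DICER1-sh, where it was not above background. The mean of CLDN3 was at least 1.22-fold lower in DROSHA-sh. With array spread counted, the log2 change was -0.96 for CLDN4 (95% interval -1.83 to -0.09) and -0.74 for CLDN3 (95% interval -1.40 to -0.07). Both intervals include changes smaller than these bounds. CLDN7 stood at 0.86 and 0.80 (standard error 0.48). Among the line markers PLAU stood at 0.38 and 0.70 (standard error 0.26) and EGFR at -0.23 and -0.33 (standard error 0.26). CD44 stood at -0.72 and -0.62 (standard error 0.57), but its control arrays lay apart at 15.24 and 13.46, and both knockdowns overlapped control. Normalised intensities of a list's tested markers were also summed per array and put on the log2 scale, so the brightest weigh most. For the luminal markers this level ran from 12.38 to 12.40 in control, 12.43 to 12.56 in DICER1-sh and 12.57 to 12.74 in DROSHA-sh. For the 2 detected myoepithelial markers it ran from 8.18 to 8.58, 8.72 to 8.78 and 8.46 to 8.65. The part of these markers in the KRT18 and KRT15 changes was not tested. Of the melanocytic markers TYR, MLANA and SOX10 were detected on no array, PMEL on 1 and MITF on all. Of the leukocyte markers PTPRC, CD3D and HBB were detected on no array, and CD14 and LYZ on all. Of the fibroblast markers COL1A1, COL3A1 and PDGFRB were detected on no array and LUM on 1. Changes were -0.15 and -0.41 for MITF, 0.39 and -0.02 for CD14, and -0.05 and -0.07 for LYZ. DCN stood at -0.45 and 0.02, and was above background on 1 of the DICER1-sh arrays. COL1A2 was above background on 1 array of each group, and its groups overlapped.

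The genes whose array profile was most like that of KRT8, by Pearson correlation of log2 levels over the 6 arrays, were TRIM28 (0.999), LRFN4 (0.997), ILKAP (0.997), AP1G2 (0.997) and DNTTIP1 (0.997). KRT7, its nearest member, had 0.973. For KRT18 they were MIR450A1 (0.990), SIRT7 (0.977), PXYLP1 (0.975), LRG1 (0.974) and TRAPPC6A (0.969), none of which was among those of KRT8. With KRT8 itself KRT18 had a correlation of -0.28. The 6 points share the array split described above, and 12083 named genes were searched, so high values are common.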

How the data were processed

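Total RNA was labelled as biotinylated cRNA and read on 6 Illumina arrays, 2 per group, per the labels. Raw mean bead intensity and the detection p-value of each probe are in one deposited table, per the file headers. Another that the authors deposited gives processed intensity, background-subtracted and nearly equal in distribution between arrays by its values. GenomeStudio is named in the submitters' processing notes. From the deposited raw intensities, log2 values were made with the neqc function (limma 3.58.1, R 4.3.3; offset 16, quantile), its background inferred from the detection p-values. The 22091 probes with a detection p below 0.05 on at least 2 arrays were kept, and the brightest probe stood for a gene (17790 features, 12083 named). Dimmer probes were read from a fit of every kept probe. All groups were fitted with lmFit and eBayes (3 residual and 4.34 prior degrees of freedom), Benjamini-Hochberg adjusted, and the fit was tested on simulated data. Where a group had a probe above background on no array and did not overlap the other group, a bound on the difference of means is given. For it, values under the lowest detected level were raised to that level, and array spread was left out. Probe levels were compared within a probe only, apart from the summed intensities of marker lists. Symbols were updated through the RefSeq gene table of GRCh38.p14. Genes outside the members were named by rule: other keratins above background on at least 2 arrays, the 3 smallest p-values of each list, and the 5 genes most like KRT8 and KRT18. Members and lists were chosen with earlier results of these data known. Alternatives covered background correction, normalization, filters, probe choice, weights, blocks and left-out arrays.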

Additional observations from a re-analysis of the deposited data

How the results depend on the processing

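The 6 detected keratins in 3 comparisons gave 360 values over 20 alternatives for each, of which 24 had the other direction and 2 passed an adjusted p of 0.05. KRT18 in DICER1-sh (-1.64 to -0.28), KRT19, KRT7, KRT80 and KRT15 in DROSHA-sh, and KRT18 and KRT15 in DROSHA-sh against DICER1-sh kept their direction under all 20. Several alternatives left each change as it was: the filters, array weights, blocks, every probe as itself, and an array left out of the group not compared. The 360 values thus include ones that could not reverse. With every probe as itself the brighter probe was read, while the dimmer KRT80 probe stood at 0.18 in DROSHA-sh. With 1 array left out, the ranges that crossed 0 in DICER1-sh were -0.30 to 0.90 for KRT8, -0.053 to 0.68 for KRT19, -0.022 to 0.88 for KRT7 and -0.32 to 0.047 for KRT80. In DROSHA-sh they were -0.24 to 0.23 for KRT18 and -0.16 to 0.90 for KRT8. In DROSHA-sh against DICER1-sh they were -0.54 to 0.66 for KRT8, -0.30 to 0.43 for KRT19, -0.37 to 0.50 for KRT7 and -0.23 to 0.13 for KRT80. With the mean of a gene's probes KRT80 stood at 0.13 in DICER1-sh and KRT18 at 0.048 in DROSHA-sh. Leaving out control 1 and DICER1-sh 2, chosen after seeing the data, gave 0.029 for KRT80 in DICER1-sh, -0.16 for KRT8 in DROSHA-sh, and -0.54, -0.30 and -0.37 for KRT8, KRT19 and KRT7 in DROSHA-sh against DICER1-sh. Leaving out control 2 and DICER1-sh 1, chosen likewise, gave -0.041 for KRT15 in DICER1-sh, 0.23 for KRT18 in DROSHA-sh and 0.13 for KRT80 in DROSHA-sh against DICER1-sh. That setting called 5816 features in DROSHA-sh against control, among them 2 keratins, KRT8 at 0.90 and KRT7 at 0.95 (adjusted p = 0.0265 and 0.0247 in limma), against 0 features when control 1 and DICER1-sh 2 were left out. In both settings the spread came from the DROSHA-sh pair alone, with the lone control array assumed to vary like it, and the cause of the unequal counts was not tested. In no other setting did a keratin pass. Over all features, the count in DROSHA-sh against control was 0, and 1 under cyclic loess, under median scaling and from the deposited values. In DROSHA-sh against DICER1-sh it was 1, 5 with array weights, and 0 without background correction, with an offset of 50, with no filter, with probes above background on all 6 arrays, with every probe as itself, with either pair of arrays left out and with any single array left out (0 to 0). In DICER1-sh against control it was 0 throughout.

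The replicate numbers do not pair the arrays (correlations of the replicate differences -0.63, -0.034 and 0.019). The replicate block gave 0 features in each comparison, moved DROSHA-sh against DICER1-sh from 1 to 0, and changed no call of a keratin. A block with crossed numbers, chosen after seeing the data, gave 0, 10 and 6 features in the 3 comparisons. Of the 10 keratin probes 8 were above background on all arrays, and 7 at a detection p of 0.01. KRT15 lay near background, which limits its size, and 2 arrays a group limit every interval.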
